A study of Rattus norvegicus with 6 samples.

Results

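Cholesterol and fatty acid synthesis genes were followed in RNA sequencing of wild-type rat (Rattus norvegicus) mesenchymal stem cells (MSC) of 2 origins. A set of 3 libraries was labelled rcMSC, with cranial bone marrow as tissue, and another 3 rbMSC, with marrow of femurs and tibias. Strain, age, sex, passage and treatment are not given in the labels. Nor is it stated whether replicates stem from different animals or preparations, and the tests below then reflect variation among 6 libraries that could be technical. The design names a single comparison, rcMSC against rbMSC. The members were taken by symbol from the deposited count table: 32 of 34 listed genes were present among 30498 rows, namely 16 enzymes of sterol synthesis, 11 genes of fatty acid synthesis, and 5 regulators or transport proteins. Fdps and Nsdhl were not found under their symbols and were not analysed here. All 32 passed the filter on low counts, with mean rbMSC levels from 2.31 CPM (Tm7sf2) to 462 CPM (Scd2), where CPM is the read count scaled to library size.

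Cells make cholesterol from acetyl-CoA through the mevalonate pathway, and fatty acids from the same precursor by carboxylation, chain synthesis, elongation and desaturation. Many enzymes of both routes are transcribed under sterol regulatory element binding proteins (SREBP), membrane proteins encoded by Srebf1 and Srebf2. The escort protein SCAP carries them from the endoplasmic reticulum to the Golgi for cleavage when sterols are scarce, and INSIG proteins retain SCAP when sterols are plentiful. In bone marrow stroma these routes supply membranes of dividing cells and the lipid store of adipocytes.

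Most of these genes were higher in rcMSC. With edgeR's quasi-likelihood test and an adjusted p under 0.05 over 14836 genes, 24 of 32 members were higher and 1, Scap, was lower, while 22.6% of all genes tested were called higher and 23.2% lower. The sterol enzymes were higher in 12 of 16, the fatty acid genes in 9 of 11 and the regulators in 3 of 5. The median log2 fold change (rcMSC over rbMSC) was 0.60 for sterol enzymes, 0.49 for fatty acid genes and 0.49 for regulators, against 0.015 over all genes tested. Tested against a change of 1.5-fold (glmTreat), 5 members were higher, Srebf1, Tm7sf2, Scd, Scd2 and Fads2, and none lower, where 5.41% of all genes were higher and 8.18% lower. The largest changes were in fatty acid desaturases: Scd was 9.16-fold higher, Fads2 3.91-fold and Scd2 3.52-fold.

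The 3 rcMSC libraries were not alike in these genes. Replicates 1 and 2 lay close together, and replicate 3 lay below both of them in 30 of 32 members (93.8%), against 41.7% of all genes tested. The exceptions were Scap and Acaca. All 3 rcMSC libraries were above all 3 rbMSC libraries in 23 members, where 28.3% of all genes showed this order. Replicates 1 and 2 alone were above all rbMSC libraries in 28 members, where 36.4% of all genes were. Without replicate 3 of rcMSC, 28 of 32 members were higher and 1 lower in edgeR, with 29.9% of all genes called higher and 30.2% lower, and the medians rose to 0.79 for sterol enzymes and 0.64 for fatty acid genes. The members' fold changes are therefore given with and without that library. Replicate 3 was singled out by these same values, so calls and adjusted p without it are not independent support for a difference. Such p rest on rcMSC replicates 1 and 2, which lay close together.

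**Figure D1:**
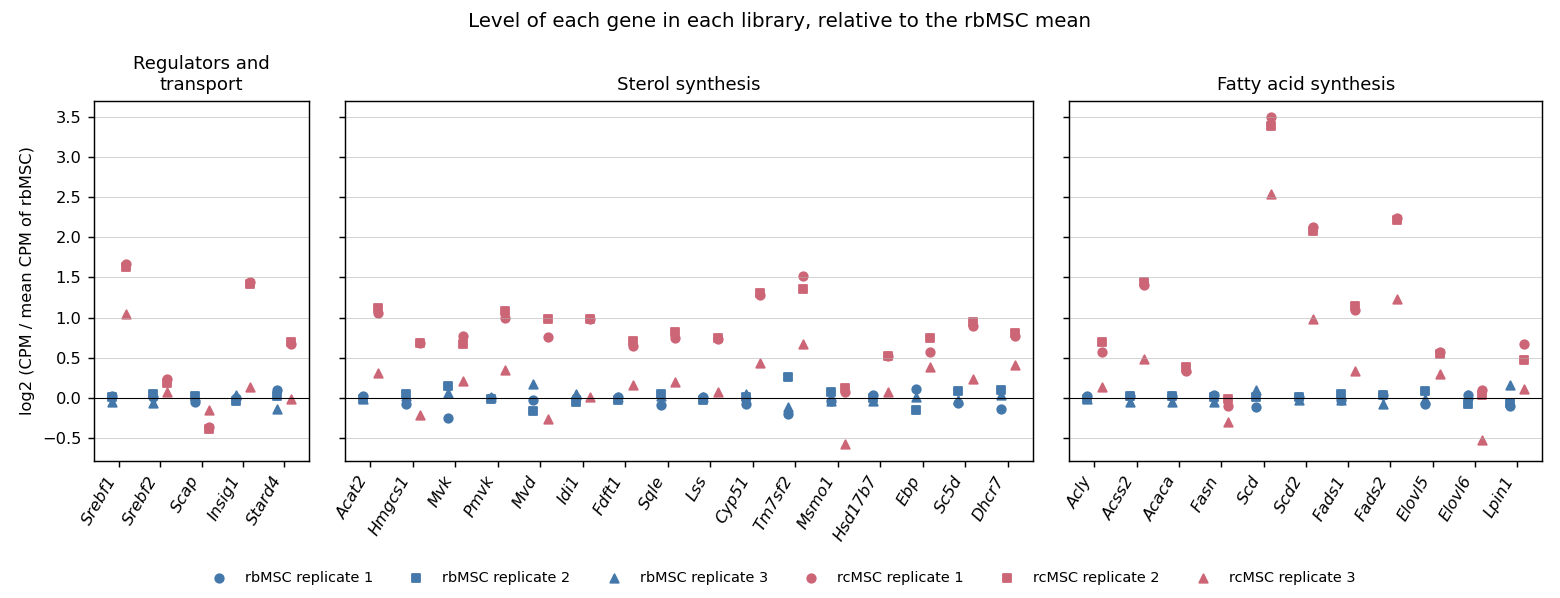
Level of each of the 32 genes in each library as log2 of its CPM over the mean CPM of the 3 rbMSC libraries (y axis), with genes on the x axis grouped by role. Blue symbols are rbMSC libraries and red symbols rcMSC libraries, with 1 symbol shape per replicate number. The red triangles (rcMSC replicate 3) lie below the red circles and squares in 30 of 32 genes, and the blue symbols stay near 0.

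Total counts were 21340290 to 26928079 per library. The counts of rcMSC replicate 3 differed from those of replicates 2 and 1 by chi-square values of 42.0 and 42.8 per degree of freedom across rows whose summed count in the compared libraries reached 20, where the other pairs within a group gave 2.69 to 3.16. The MSC markers were present in both groups, with 6 of 12 higher and 6 lower in rcMSC, where 22.6% and 23.2% of all genes were. Among them were Thy1 (log2 fold change -1.12), Alcam (1.11) and Vcam1 (-1.81). Macrophage markers were also present in both, and of 17 tested 12 were lower, against 23.2% of all genes, and 5 did not pass. Their summed level was 1276, 1277 and 1279 CPM in rbMSC replicates 1 to 3 and 775, 765 and 797 CPM in rcMSC, and Cd163 was at or near 0 throughout. The near-equal rcMSC sums do not mean that replicate 3 matched in each marker. In rcMSC replicates 1 to 3, Csf1r had 41.4, 43.6 and 77.3 CPM and Ptprc 42.5, 38.1 and 56.3 CPM. Replicate 3 was below both other rcMSC libraries in 5 of the 17 markers tested, against 41.7% of all genes. Ptprc, Csf1r and Cd74 had log2 fold changes of -1.57, -1.53 and -2.13. In such bulk samples fewer cells of a type and less RNA per cell cannot be told apart.

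Regulators differed in direction. Srebf1 encodes the SREBP that acts mainly on fatty acid genes (ENSRNOG00000003463, chromosome 10, 45007637 to 45029650, - strand, build mRatBN7.2). Its level was 31.7, 31.4 and 30.1 CPM in rbMSC replicates 1 to 3 and 98.4, 96.1 and 64.3 CPM in rcMSC replicates 1 to 3. All rcMSC libraries were above all rbMSC libraries, with replicate 3 the lowest of the 3. The log2 fold change was 1.48 (SE 0.15, adjusted p = 0.000102 in edgeR), or 1.65 without replicate 3. Srebf1 shares 596 exon bases with Rai1 on the opposite strand, whose own log2 fold change was -0.14 (adjusted p = 0.0900 in edgeR), and counting without strand would not separate their reads.

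Srebf2, the SREBP that acts mainly on cholesterol genes (ENSRNOG00000007400), moved little. Its level was 135, 138 and 129 CPM in rbMSC and 158, 153 and 141 CPM in rcMSC. The groups did not overlap, and the log2 fold change was 0.17 (SE 0.061, adjusted p = 0.0477 in edgeR). The call did not hold without any 1 of the rbMSC libraries or rcMSC replicate 1 or 2 (adjusted p = 0.0863 to 0.182), and without rcMSC replicate 3 it was 0.21 (adjusted p = 4.05e-05). Scaled for gene length as well (TPM), the level of Srebf2 was 3.79, 3.90 and 3.80 times that of Srebf1 in rbMSC and 1.42, 1.41 and 1.95 times in rcMSC.

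Scap, which escorts SREBP out of the endoplasmic reticulum, was the member that fell. Its level was 80.0, 84.1 and 84.4 CPM in rbMSC and 64.7, 63.4 and 74.8 CPM in rcMSC. All rcMSC libraries were below all rbMSC libraries, with replicate 3 the nearest to them (log2 fold change -0.29, SE 0.073, adjusted p = 0.00806 in edgeR, and -0.37 without replicate 3).

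Insig1 encodes a retention protein for SCAP that is itself induced by SREBP (ENSRNOG00000006859, chromosome 4, 7315495 to 7323952, - strand). Its level was 75.0, 73.6 and 77.4 CPM in rbMSC and 205, 201 and 82.6 CPM in rcMSC. Replicates 1 and 2 stood far above rbMSC, and replicate 3 only just above the highest rbMSC library. The log2 fold change of 1.12 (SE 0.36) did not pass over the 6 libraries (adjusted p = 0.0540 in edgeR), and without replicate 3 it was 1.43 (adjusted p = 1.67e-34). It passed with DESeq2 (0.0178), limma voom (0.0222), upper-quartile scaling (0.0495) and a filter of at least 1 CPM (0.0435). In edgeR it did not pass with the replicate number as a block (adjusted p = 0.0855). Nor did it pass without any 1 library other than rcMSC replicate 3 (adjusted p up to 0.136 in edgeR). Among the 6996 genes whose mean log2 CPM was 4 or more, Insig1 had the lowest ratio of rcMSC replicate 3 to the mean of replicates 1 and 2 (log2 ratio -1.30), a rank looked up after its values were seen.

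Stard4, a carrier of sterols between membranes, had 10.2, 9.73 and 8.63 CPM in rbMSC and 15.2, 15.4 and 9.44 CPM in rcMSC, so that replicate 3 fell within the rbMSC range. Its log2 fold change was 0.49 (SE 0.18, adjusted p = 0.0495 in edgeR), and the call did not hold without any 1 of the libraries other than rcMSC replicate 3 (adjusted p = 0.0863 to 0.160). Without replicate 3 of rcMSC it was 0.69 (adjusted p = 3.48e-07).

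The promoter of Insig1, among the 6 largest changes of genes with 1 window, is shown first of several. SREBP is known to act beside the factors NF-Y and Sp1 at the starts of target genes. Windows run from 250 bases before to 50 after the gene start, from RefSeq in build GRCr8, which differs from the build of the counts, and 27 of 34 listed genes matched a window (28 windows, 2 of them for Srebf1, and with Fdps and Nsdhl included). Capitals mark the NF-Y box CCAAT on either strand. The Insig1 window (chr4:8057720-8058019, - strand) holds 1 such box, 193 bases before the start, 1 Sp1 box (GGGCGG) and 1 E-box (CACGTG).
Insig1: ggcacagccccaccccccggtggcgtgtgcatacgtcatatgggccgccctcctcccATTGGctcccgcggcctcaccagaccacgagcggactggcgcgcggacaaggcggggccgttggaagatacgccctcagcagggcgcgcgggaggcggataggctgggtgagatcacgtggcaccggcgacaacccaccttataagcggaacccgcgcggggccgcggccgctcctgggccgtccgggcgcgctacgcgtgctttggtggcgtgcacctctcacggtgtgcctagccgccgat
The 9-letter sterol element TCACNCCAC, searched on both strands, was in 0 of 28 windows and in 1.12% of all 33469 windows, and no match says only that these letters are not in these windows. The NF-Y box was in 22 of 28 windows (78.6%), against 37.5% of all windows and 36.8% of the windows of tested genes. The Sp1 box was also in 22 of 28, against 33.1% and 60.9%, and the E-box CACGTG in 4 of 28, against 6.42% and 8.93%. None of the 4 motifs holds another within it, partial overlaps were not removed, and a match is a description, not a site.

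In sterol synthesis, the early steps make the isoprenoid units. Acat2, which joins acetyl-CoA units, had 28.8, 28.0 and 28.1 CPM in rbMSC and 58.7, 61.6 and 35.0 CPM in rcMSC, and the groups did not overlap (log2 fold change 0.87, SE 0.20, adjusted p = 0.00938 in edgeR, and 1.09 without rcMSC replicate 3). Hmgcs1, the synthase of the next step, had 160.1, 174 and 172 CPM in rbMSC and 271, 271 and 145 CPM in rcMSC. Here replicates 1 and 2 were above and replicate 3 below every rbMSC library, and the log2 fold change of 0.44 (SE 0.24) did not pass (adjusted p = 0.187 in edgeR), while without replicate 3 it was 0.69 (adjusted p = 8.21e-22). Mvd, the mevalonate diphosphate decarboxylase, showed the same order, with 7.44, 6.79 and 8.56 CPM in rbMSC and 12.9, 15.1 and 6.32 CPM in rcMSC (log2 fold change 0.59, adjusted p = 0.137 in edgeR, and 0.88 with adjusted p = 9.91e-09 without replicate 3). For Idi1, the isopentenyl diphosphate isomerase, replicate 3 lay among the rbMSC libraries, at 38.7, 37.3 and 39.8 CPM in rbMSC against 76.4, 76.0 and 38.9 CPM in rcMSC (log2 fold change 0.73, adjusted p = 0.0574 in edgeR, and 0.98 with adjusted p = 6.48e-22 without replicate 3). Idi1 passed with DESeq2 (0.0499) and limma voom (0.0411). In edgeR Idi1 did not pass with the replicate number as a block (adjusted p = 0.0605). Nor did it pass without any 1 library other than rcMSC replicate 3 (adjusted p up to 0.157 in edgeR). On the log2 scale the kinase Pmvk rose by 0.84 (adjusted p = 0.00555 in edgeR) and the kinase Mvk by 0.57 (adjusted p = 0.0171 in edgeR), or by 1.04 and 0.72 without rcMSC replicate 3. The call of Mvk did not hold when replicate 1 of rbMSC, or 1 or 2 of rcMSC, was left out (adjusted p = 0.0772, 0.0682 and 0.0537).

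The steps to squalene and lanosterol moved by similar amounts. Sqle, the squalene epoxidase, had 57.7, 63.3 and 62.3 CPM in rbMSC and 102, 108 and 70.1 CPM in rcMSC, with all rcMSC libraries higher (log2 fold change 0.61, SE 0.15, adjusted p = 0.0114 in edgeR, and 0.78 without replicate 3). Fdft1, the squalene synthase, rose by 0.53 (adjusted p = 0.00925 in edgeR, and 0.68 without replicate 3). Lss, the lanosterol synthase, rose by 0.55 (adjusted p = 0.0309 in edgeR), a call that held without rcMSC replicate 3 (0.73) and not without any other 1 library (adjusted p = 0.0659 to 0.0846).

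Among the enzymes that turn lanosterol into cholesterol, Cyp51, the lanosterol demethylase (ENSRNOG00000007234, chromosome 4, 30036865 to 30055410, + strand), was the most abundant member of the branch per length in both groups, at 236 ± 9.03 TPM in rbMSC and 458 ± 137 TPM in rcMSC (SD, n = 3 each). Its libraries read 186, 198 and 203 CPM in rbMSC and 474, 486 and 264 CPM in rcMSC. All rcMSC libraries were higher, replicate 3 the least (log2 fold change 1.06, SE 0.23, adjusted p = 0.0108 in edgeR, and 1.29 without replicate 3). Tm7sf2, a sterol reductase of low abundance, had the largest change of the branch, from 2.01, 2.77 and 2.14 CPM in rbMSC to 6.63, 5.93 and 3.68 CPM in rcMSC without overlap (log2 fold change 1.23, SE 0.24, adjusted p = 0.00223 in edgeR, and 1.44 without replicate 3). Sc5d, a sterol desaturase, Dhcr7, which makes cholesterol in the last step of one route, and Ebp, a sterol isomerase, rose by 0.73, 0.67 and 0.58 (adjusted p = 0.0123, 0.00272 and 0.00208 in edgeR), or by 0.93, 0.79 and 0.67 without replicate 3. Hsd17b7, a sterol ketone reductase, rose by 0.39 (adjusted p = 0.0412 in edgeR, and 0.52 without replicate 3), and the call did not hold without any 1 library other than rcMSC replicate 3 (adjusted p = 0.0912 to 0.139).

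Msmo1, the methylsterol oxidase, was the sterol enzyme with a fold change below 0. Its level was 48.0, 52.0 and 47.8 CPM in rbMSC and 52.0, 53.5 and 33.0 CPM in rcMSC. Replicates 1 and 2 lay near the highest rbMSC library and replicate 3 below the lowest, so the log2 fold change of -0.093 (SE 0.17, adjusted p = 0.678 in edgeR) became 0.10 without replicate 3 (adjusted p = 0.153). The windows of Tm7sf2 (chr1:212789492-212789791, - strand) and Msmo1 (chr16:29746863-29747162, + strand) are set side by side, since these genes had the largest and the lowest fold change of the branch. Capitals again mark the NF-Y box, present 2 times in the first and 3 times in the second, and the Sp1 box was present 1 time and 3 times.
Tm7sf2: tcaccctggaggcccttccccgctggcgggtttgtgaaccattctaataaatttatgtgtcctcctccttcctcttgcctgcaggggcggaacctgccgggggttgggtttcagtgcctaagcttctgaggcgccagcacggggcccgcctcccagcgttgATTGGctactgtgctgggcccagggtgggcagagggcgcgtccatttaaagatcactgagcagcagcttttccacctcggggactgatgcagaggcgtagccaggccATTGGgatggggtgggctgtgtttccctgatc
Msmo1: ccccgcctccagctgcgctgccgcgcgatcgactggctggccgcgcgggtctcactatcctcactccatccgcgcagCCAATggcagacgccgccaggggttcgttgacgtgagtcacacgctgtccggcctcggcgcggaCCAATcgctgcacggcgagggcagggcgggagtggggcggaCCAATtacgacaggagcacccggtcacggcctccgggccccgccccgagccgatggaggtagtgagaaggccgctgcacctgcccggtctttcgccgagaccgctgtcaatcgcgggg

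**Figure D2:**
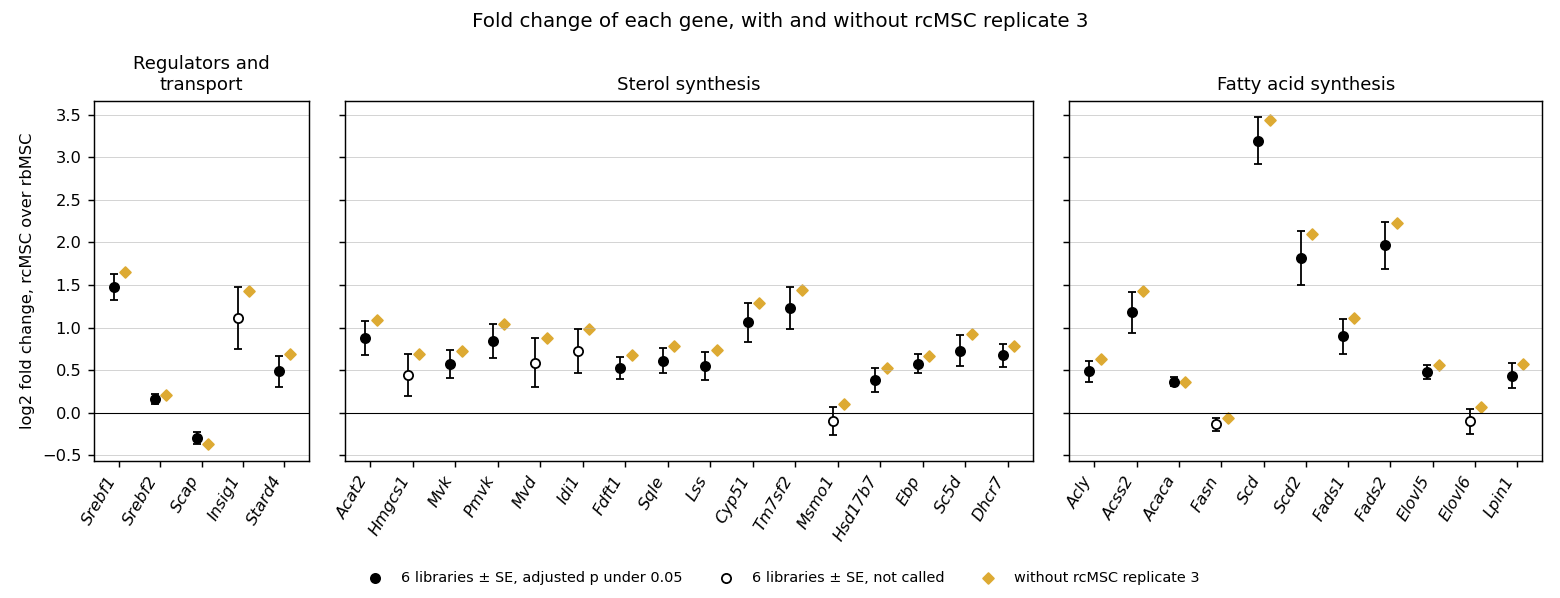
Log2 fold change of each gene, rcMSC over rbMSC (y axis), from edgeR on all 6 libraries (circles with SE bars, filled where the adjusted p was under 0.05) and without rcMSC replicate 3 (diamonds). The diamonds of Hmgcs1, Mvd, Idi1 and Insig1, open circles over 6 libraries, lie at 0.69, 0.88, 0.98 and 1.43.

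In fatty acid synthesis, 9 of 11 genes rose, and Fasn and Elovl6 did not pass. Acly, which makes acetyl-CoA from citrate, had 185, 179.8 and 181 CPM in rbMSC and 271, 295 and 199 CPM in rcMSC, with no overlap (log2 fold change 0.49, SE 0.13, adjusted p = 0.0134 in edgeR, and 0.64 without replicate 3). Acss2, which makes acetyl-CoA from acetate, rose from 10.7, 10.6 and 10.1 CPM in rbMSC to 27.8, 28.5 and 14.7 CPM in rcMSC (log2 fold change 1.18, SE 0.24, adjusted p = 0.00544 in edgeR, and 1.43 without replicate 3). Acaca, the carboxylase of the first committed step, was the fatty acid gene in which replicate 3 did not stand apart, with 108, 108 and 102 CPM in rbMSC and 134, 139 and 138 CPM in rcMSC (log2 fold change 0.37, SE 0.054, adjusted p = 0.000362 in edgeR, and 0.36 without replicate 3). Fasn, the fatty acid synthase, lay at 302, 296 and 284 CPM in rbMSC and 274, 291 and 239.5 CPM in rcMSC (log2 fold change -0.13, SE 0.074, adjusted p = 0.162 in edgeR, and -0.058 without replicate 3). Elovl6, which extends saturated chains, lay at 21.8, 20.1 and 21.7 CPM in rbMSC and 22.8, 21.8 and 14.8 CPM in rcMSC, with a log2 fold change of -0.10 (adjusted p = 0.610 in edgeR) that turned to 0.071 without replicate 3 (adjusted p = 0.482).

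The desaturases Scd and Scd2 place the first double bond in saturated chains. Scd (ENSRNOG00000013552, chromosome 1, 243269747 to 243282562, - strand) had 13.7, 14.9 and 15.8 CPM in rbMSC and 167, 154 and 86.1 CPM in rcMSC, so that even replicate 3 lay far above every rbMSC library. Its log2 fold change was 3.20 (SE 0.27, adjusted p = 0.000184 in edgeR), the largest of the 32 members, and 3.44 without replicate 3. Scd2 (ENSRNOG00000046005, chromosome 1, 243169236 to 243182232, + strand) lies on the same chromosome with 87514 bases between the genes, and was the most abundant member per length, at 352 ± 7.38 TPM in rbMSC and 1150 ± 432 TPM in rcMSC (SD, n = 3 each). Its libraries read 466, 465 and 454 CPM in rbMSC and 2009, 1951 and 912 CPM in rcMSC. Replicate 3 fell about midway on the log scale, at 46.8% of the log2 difference that replicates 1 and 2 showed (log2 fold change 1.81, SE 0.32, adjusted p = 0.00678 in edgeR, and 2.10 without replicate 3). The level of Scd2 per length was 32.4, 29.6 and 27.3 times that of Scd in rbMSC and 10.1 to 12.03 times in rcMSC, with no overlap of the groups. Reads that map to several related Scd genes may have been split or dropped, since the handling of such reads is not given in the sources used here.

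Fads1 and Fads2 are the desaturases of polyunsaturated chains, and lie near each other on chromosome 1. Fads2 (ENSRNOG00000020440, chromosome 1, 206708783 to 206748789, - strand) rose from 18.7, 18.7 and 17.3 CPM in rbMSC to 86.1, 84.6 and 42.9 CPM in rcMSC without overlap (log2 fold change 1.97, SE 0.28, adjusted p = 0.00156 in edgeR, and 2.23 without replicate 3). Fads1 rose from 51.8, 54.3 and 51.6 CPM to 112, 116 and 66.1 CPM (log2 fold change 0.90, SE 0.20, adjusted p = 0.0108 in edgeR, and 1.12 without replicate 3). The level of Fads2 per length was 0.384, 0.367 and 0.357 of that of Fads1 in rbMSC and 0.818, 0.777 and 0.690 in rcMSC. Elovl5, which extends polyunsaturated chains, rose by 0.48 (SE 0.08, adjusted p = 0.000792 in edgeR, and 0.56 without replicate 3). Lpin1, a phosphatidate phosphatase of glycerolipid synthesis, rose by 0.44 (adjusted p = 0.0346 in edgeR), but the call was lost on leaving out replicate 1 or replicate 2 of either group (adjusted p = 0.0802 to 0.140), and it was 0.57 without rcMSC replicate 3. The windows of the fatty acid genes with the largest changes, Scd (chr1:253231682-253231981, - strand), Fads2 (chr1:216171984-216172283, - strand), Scd2 (chr1:253118127-253118426, + strand) and Acss2 (chr3:164464453-164464752, + strand), are shown with the NF-Y box in capitals.
Scd: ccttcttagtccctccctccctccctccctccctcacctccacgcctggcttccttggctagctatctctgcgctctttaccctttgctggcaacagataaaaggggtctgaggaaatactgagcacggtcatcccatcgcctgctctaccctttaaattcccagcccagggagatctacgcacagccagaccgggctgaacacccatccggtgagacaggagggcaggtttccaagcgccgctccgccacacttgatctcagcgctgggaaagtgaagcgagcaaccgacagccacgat
Fads2: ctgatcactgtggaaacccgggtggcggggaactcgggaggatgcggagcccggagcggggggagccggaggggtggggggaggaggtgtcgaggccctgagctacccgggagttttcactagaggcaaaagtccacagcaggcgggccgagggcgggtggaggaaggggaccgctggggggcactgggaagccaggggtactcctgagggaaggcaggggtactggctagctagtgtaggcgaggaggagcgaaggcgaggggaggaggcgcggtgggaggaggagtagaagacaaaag
Scd2: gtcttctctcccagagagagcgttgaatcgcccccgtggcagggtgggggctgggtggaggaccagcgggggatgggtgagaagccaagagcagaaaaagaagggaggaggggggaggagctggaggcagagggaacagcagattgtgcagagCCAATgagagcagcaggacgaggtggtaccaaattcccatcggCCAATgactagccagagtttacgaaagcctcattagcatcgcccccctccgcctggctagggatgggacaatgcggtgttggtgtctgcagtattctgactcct
Acss2: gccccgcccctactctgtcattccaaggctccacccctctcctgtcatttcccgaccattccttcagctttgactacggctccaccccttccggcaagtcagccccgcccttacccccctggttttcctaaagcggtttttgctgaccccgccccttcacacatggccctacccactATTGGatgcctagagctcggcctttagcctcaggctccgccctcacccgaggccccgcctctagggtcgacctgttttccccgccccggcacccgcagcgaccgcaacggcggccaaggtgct
The box was in the windows of Scd2, 97 and 54 bases before the start, and of Acss2, 73 bases before the start, and these letters were not in those of Scd and Fads2, which had the larger fold changes.

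**Figure D3:**
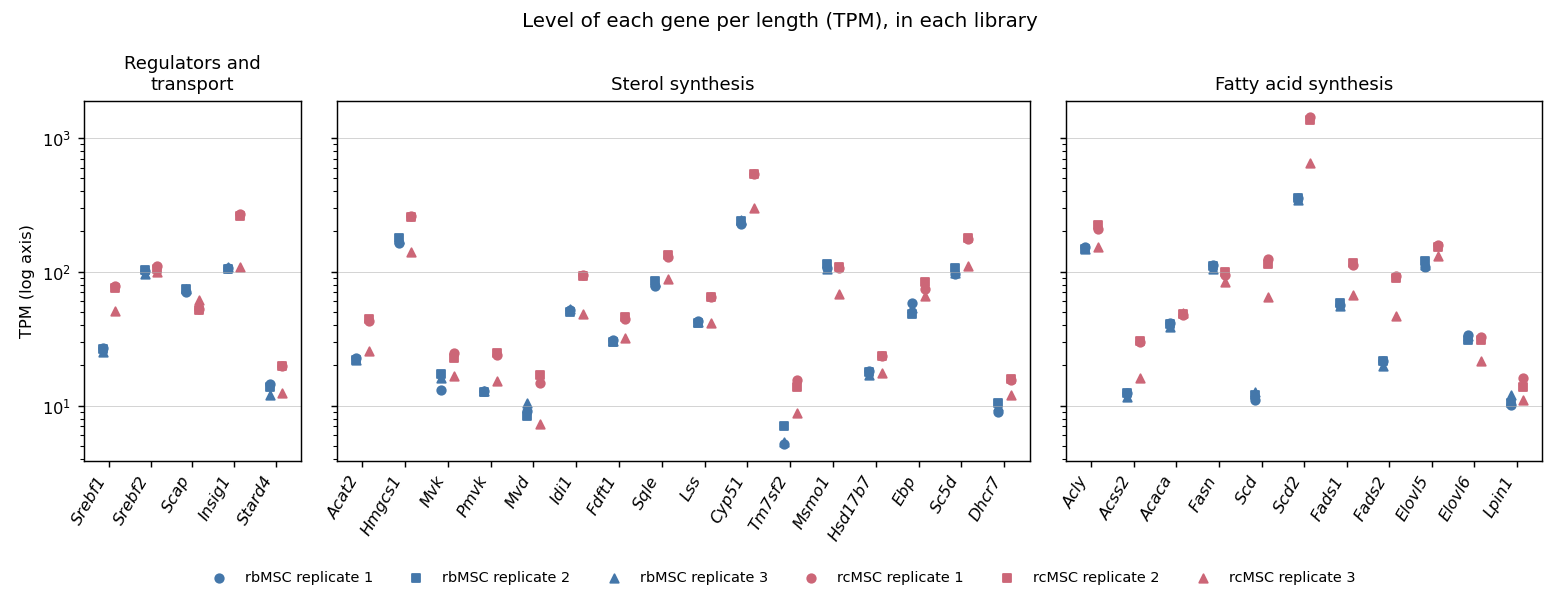
Level of each gene per length (TPM, log axis) in each library, with genes on the x axis grouped by role, blue symbols for rbMSC, red for rcMSC and 1 symbol shape per replicate number. Scd2 is the highest in both groups, at 352 TPM in rbMSC and 1150 TPM in rcMSC on average, and Scd moves from 11.9 to 101 TPM.

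Summed over the branch, the 16 sterol enzymes made up 945, 989 and 975 TPM in rbMSC replicates 1 to 3 and 1640, 1665 and 997 TPM in rcMSC replicates 1 to 3. Replicate 3 thus lay just above the rbMSC libraries, and replicates 1 and 2 well above them. The 11 fatty acid genes made up 918, 920.2 and 891 TPM and 2343, 2289 and 1297 TPM, and Scd2 was the largest single share of the sum in every library. For the 26 members that differed by at least 0.5 on the log2 scale between rcMSC replicates 1 and 2 and rbMSC, replicate 3 reached a median of 28.4% of that difference. The same value was 25.5% for sterol enzymes and 40.4% for fatty acid genes, against 73.8% over the 5412 genes tested that differed as much and 68.1% over the 2446 of them that were higher. It was 73.8% for Scd and 63.7% for Srebf1, 9.20% for Insig1 and 9.72% for Lss.

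**Figure D4:**
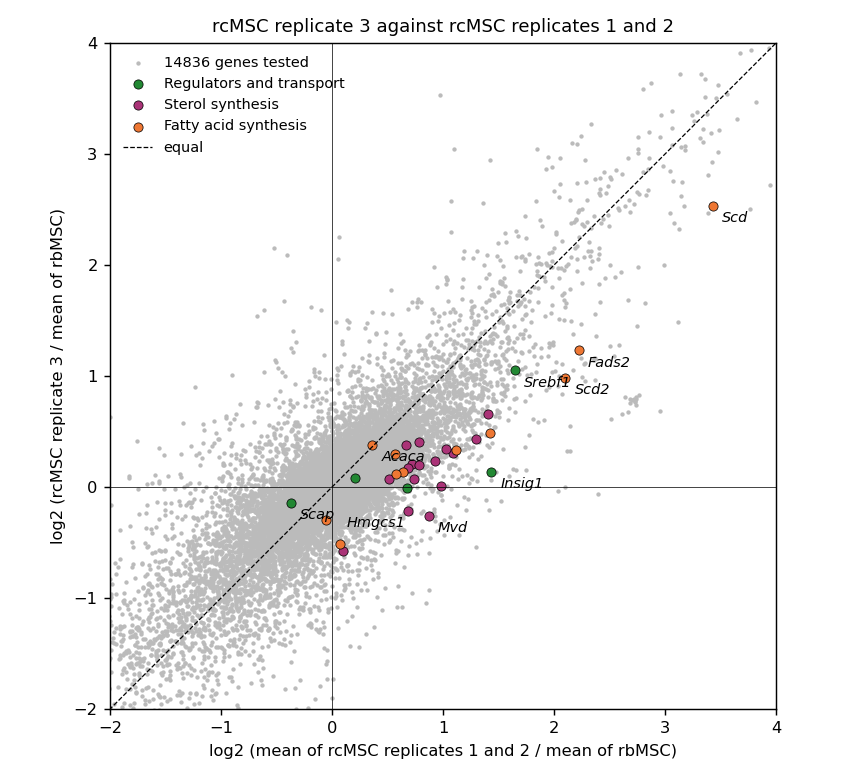
Log2 ratio to the rbMSC mean of rcMSC replicate 3 (y axis) against that of the mean of rcMSC replicates 1 and 2 (x axis), for 14836 genes tested (grey) and the 32 members (coloured by role), with 0.1 added to each CPM. Points on the dashed line have equal ratios, and most members lie below it, among them Insig1 at 1.43 on the x axis, while Acaca lies on it. Both axes run from -2 to 4, and points outside are not shown.

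Short non-coding RNA, chosen after its values were seen, moved with the same libraries. The rows named as 7SL RNA, the RNA of the signal recognition particle, summed to 343, 372 and 477 CPM in rbMSC and 1773, 1982 and 854 CPM in rcMSC, and 18 of 18 such rows tested were higher in rcMSC with replicate 3 below the other rcMSC libraries in 18. The rows named as U1 RNA, of the spliceosome, summed to 24.5, 29.0 and 28.0 CPM in rbMSC and 118, 133 and 37.2 CPM in rcMSC, with 16 of 19 higher and 1 lower. Over all genes tested, 22.6% were higher and 23.2% lower, and replicate 3 was below both other rcMSC libraries in 41.7%. The 7SL and U1 rows were taken by name and may be related copies, whose reads cannot be assigned with certainty. The part of this difference between libraries in the values of the sterol and fatty acid genes was not tested.

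Markers of other cells gave further context for lipid genes. Their counts are set beside all genes tested, of which 22.6% were higher and 23.2% lower. Of 10 adipocyte markers tested, 6 were lower in rcMSC and 4 did not pass, with 4 more under the low-count filter, among them Adipoq and Lep, both near 0. The summed level of the list was 377, 392 and 388 CPM in rbMSC and 81.2, 76.9 and 86.8 CPM in rcMSC, most of it Lpl, a lipase that releases fatty acids from lipoproteins (-2.37). Plin4, a lipid droplet protein, and Pparg, the adipocyte nuclear receptor, fell, with log2 fold changes of -4.45 and -2.25. The adipocyte list was thus lower in the group in which the desaturases were higher, and replicate 3 did not stand apart in its sum. Of 18 cell cycle genes 14 were lower, such as Cdc20 (-1.59), Plk1 (-1.42) and Aurka (-1.40), and 4 did not pass. Their sums were 482, 479 and 474 CPM in rbMSC and 275, 278 and 287 CPM in rcMSC. Within these sums rcMSC replicate 3 departed in both directions. Plk1 had 6.01, 7.88 and 4.44 CPM in rcMSC replicates 1 to 3. Mcm5, picked after its values were seen, had 5.97, 7.29 and 11.2 CPM. Replicate 3 was below both other rcMSC libraries in 10 of the 18, against 41.7% of all genes. Of 6 endothelial markers tested 1, Tek (0.90), was higher (16.7%) and 1, Tie1 (-0.50), lower, near the shares over all genes. Tie1 did not pass without rbMSC replicate 2 (adjusted p = 0.0512 in edgeR), and the list summed to no more than 17.8 CPM in any library. The part of cell type or cell cycle in the lipid genes was not tested.

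Counts in the further lists of these pathways are read against all genes tested, of which 22.6% were higher and 23.2% lower. Of 16 further SREBP targets and regulators, 4 were higher (25%) and 3 lower in rcMSC, near those shares, with a median log2 fold change of 0.091 (6 higher and 3 lower without rcMSC replicate 3, where 29.9% and 30.2% of all genes were). Mmab, of cobalamin metabolism, which shares its promoter region with Mvk in other mammals, rose by 1.29 (adjusted p = 0.00127 in edgeR), and Faxdc2 fell, at -0.71 (adjusted p = 0.00118 in edgeR).

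Of 14 genes of cholesterol efflux and of the sterol-sensing receptor LXR, 3 were higher (21.4%) and 4 lower, again near the 22.6% and 23.2% of all genes, with a median log2 fold change of 0.051. Mylip, an LXR target that encodes a ubiquitin ligase, had 16.1, 15.5 and 16.4 CPM in rbMSC and 47.8, 54.0 and 53.2 CPM in rcMSC, with replicate 3 between the other rcMSC libraries (log2 fold change 1.69, adjusted p = 8.06e-08 in edgeR). The exporter Abcg1 and the receptor Nr1h3 fell, at -0.82 and -1.17 (adjusted p = 0.00120 and 0.00144 in edgeR). In the isoprenoid branch, which leaves the pathway before squalene, 0 of 10 genes passed with edgeR, 1 had an unadjusted p under 0.05, 0 passed with DESeq2 and 0 with voom, and Coq2 came nearest (0.31, adjusted p = 0.0721 in edgeR). Of 26 other fatty acid and glycerolipid synthesis genes 6 were higher (23.1%, against 22.6% of all genes) and 3 lower (against 23.2%), or 8 and 7 without rcMSC replicate 3, where 29.9% and 30.2% of all genes were called. The higher counts are thus near the shares over all genes. Elovl4 rose by 0.92, Hacd1, a dehydratase of elongation, fell, at -0.66, and Acsl3, an acyl-CoA synthetase, rose by 0.82 (adjusted p = 0.0267 in edgeR). Acsl3 showed the members' order of libraries, 49.2, 53.4 and 51.0 CPM in rbMSC and 107, 105 and 58.3 CPM in rcMSC. Its call did not hold when replicate 1 or 3 of rbMSC, or 1 or 2 of rcMSC, was left out (adjusted p = 0.0503 to 0.0749). Of 22 fatty acid oxidation genes 4 were higher (18.2%) and 2 lower, where 22.6% and 23.2% of all genes were, with a median of 0.085. Cpt1a, which admits fatty acids to mitochondria, and Acaa2, a thiolase, fell, at -0.74 and -0.67, and Hadhb, of the trifunctional protein, rose by 0.61.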

How the data were processed

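Reads were paired and of 150 nt. Per the labels' protocols, the authors used Trim Galore 0.6.7 and Trimmomatic 0.39 for trimming, STAR 2.7.9a for mapping to rat build mRatBN7.2, and featureCounts 2.0.1 to make the deposited raw counts of reads in genes. The submitters' processing notes also list DESeq2 1.20.0. For strandedness, reads with several matches and the annotation release, no setting is stated in the labels. The gene length in bases is deposited beside the counts, per the file headers.

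On these counts, edgeR 4.0.16 (R 4.3.3) was run with TMM scaling, filterByExpr and robust quasi-likelihood dispersions over all 6 libraries, with Benjamini-Hochberg adjustment across 14836 genes. Each SE was taken as the absolute log2 fold change over the root of its F statistic. CPM used TMM scaling, and TPM the deposited length. Alternatives were DESeq2 1.42.0, voom in limma 3.58.1, other scalings and filters, glmTreat at 1.5-fold, a replicate block, and each library left out. The code was tested on simulated counts. Members and lists were chosen with earlier results of these data known. All members are named, and of each further list up to 3 called genes, ranked by size of change among those with mean log2 CPM of 1 or more, or else the gene of smallest p. A gene that this rule names is not reported here. The promoter rule asked for a sterol element, which no window held, so those shown were picked afterwards: the 6 largest changes among genes with 1 window, and Msmo1. Exons of Mvd, Idi1, Hsd17b7, Scap and Acss2 overlap genes on the opposite strand by 13 to 480 bases.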

Additional observations from a re-analysis of the deposited data

How the results depend on the processing

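Members kept their direction under every alternative run except Msmo1 and Elovl6, which reached 0.10 and 0.071 without rcMSC replicate 3. With each library left out in turn, Msmo1 ran from -0.21 to 0.10 and Elovl6 from -0.21 to 0.071. Against a 1.5-fold change (glmTreat), 802 genes were higher and 1213 lower, and among the members 1 sterol enzyme, 3 fatty acid genes and 1 regulator were higher and 0 regulators lower, since that rule asks for a larger change. Leaving out 1 library gave 1 to 4 regulators called higher. With no low-count filter, 6 members no longer passed: Acat2, Cyp51, Sc5d, Fads1, Lss and Srebf2 (adjusted p = 0.0501, 0.0513, 0.0604, 0.0572, 0.107 and 0.0520). The cause was not tested. Hsd17b7 did not pass with DESeq2 (0.0558) or voom (0.0545), nor Srebf2 with DESeq2 (0.0733), nor Stard4 with voom (0.0741) or the 1 CPM filter (0.0508). Same-numbered libraries did not deviate together (correlations of -0.027, 0.018 and -0.052 for replicates 1, 2 and 3). With 3 libraries per group these values cannot show whether the numbers pair them. With the replicate number as a block, 2 members, Srebf2 and Lpin1, no longer passed (adjusted p = 0.0766 and 0.0614), and no other call of a member changed. Depth was lowest for Tm7sf2 and Pmvk, with 43 to 228 counts per library.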

Other observations

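Relatives that lie near members in the genome were looked up after the members' values were seen. Scd4, a relative of Scd and Scd2 that lies between them on chromosome 1 (243203881 to 243215148, mRatBN7.2), had 26, 30 and 26 counts in rbMSC replicates 1 to 3 and 131, 113 and 63 counts in rcMSC replicates 1 to 3. Acat2l1, a relative of Acat2, had 24, 25 and 39 counts in rbMSC and 45, 59 and 41 counts in rcMSC. Whether such counts are reads from the more abundant relative was not tested. Fads3, 4013 bases from Fads2, had 103, 101 and 102 CPM in rbMSC and 73.2, 68.1 and 92.2 CPM in rcMSC and was lower (log2 fold change -0.39, adjusted p = 0.00992 in edgeR), with replicate 3 the nearest to rbMSC.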
